A study of Mus musculus with 180 samples.

Results

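The genes described here are 10 negative regulators of mitogen-activated protein kinase (MAPK) signalling, taken by their symbols from the deposited gene table: the dual-specificity phosphatases *Dusp1*, *Dusp2*, *Dusp4*, *Dusp5*, *Dusp6* and *Dusp16*, and the adaptor-type inhibitors *Spry1*, *Spry2*, *Spred1* and *Spred2*. They are 10 of 45070 genes in the table. Expression was measured by polyA RNA-seq in bone marrow-derived macrophages (BMDMs), grown in culture from the marrow of male wild type C57/BL6 mice of 6 to 8 weeks. The cells received 1 of 58 clinical kinase inhibitors (CKIs) or the vehicle DMSO for 1 h and then LPS, a bacterial outer membrane component that activates TLR4, at 10 ng/ml for 2 h. All 59 groups, DMSO included, were therefore LPS-stimulated, and every change below is a change of LPS-stimulated cells. There were 3 samples for each CKI, described as independent biological replicates, and 6 for DMSO, named in the labels as 2 sets of 3. Each CKI was given at a concentration set by its binding to its intended target in a bead assay, so concentrations differed between CKIs and the CKIs are not ranked by potency. By their designated targets, Pimasertib, Refametinib and Selumetinib inhibit MEK, GDC0994 and Ulixertinib inhibit ERK, Encorafenib inhibits BRAF, Losmapimod, PH797804, Talmapimod and VX702 inhibit p38, and Tanzisertib inhibits JNK. The intended target in the assay was often another protein, among these CKIs IRAK1 for Encorafenib, MAPK10 for Refametinib and the p38-activated kinase MAPKAPK2 for Losmapimod. Where the replicates were not separate animals, which the labels do not settle, the p-values measure only the spread between these cultures.

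MAPKs are switched on by phosphorylation of a threonine and a tyrosine in the activation loop, and dual-specificity phosphatases remove both phosphates. *Dusp6* and *Dusp5* encode phosphatases that act mainly on ERK, in the cytoplasm and in the nucleus respectively, and *Dusp1* and *Dusp16* encode phosphatases known for acting on p38 and JNK. *Dusp2* and *Dusp4* encode nuclear phosphatases with a broader choice of MAPKs. Sprouty and Spred proteins act further upstream, where they restrain the step from receptors through RAS to RAF. Many of these genes are induced by the pathways they restrain, which makes them feedback regulators, and *Dusp1* is known in macrophages as an early LPS-induced brake on p38.

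The members differed widely in level. Per kilobase of exonic length, which allows levels of different genes to be compared, the mean normalized value in the 6 DMSO samples was 9500 ± 4109 (SD) for *Dusp1*, rank 93 among the 12714 genes tested. *Dusp16* (250 ± 74.0), *Dusp2* (238 ± 56), *Dusp4* (145 ± 30.4) and *Spred1* (88.2 ± 41.1) followed, all above the median of the genes tested, which was 59.3 per kilobase. *Spry2* (16.5 ± 14.1), *Spred2* (14.9 ± 4.6), *Dusp6* (12.3 ± 3.78) and *Dusp5* (7.16 ± 1.84) lay below it, and *Spry1* was at 0.201 ± 0.22. In this order the DMSO samples of neighbouring genes overlapped, apart from 3 gaps: *Dusp1* stood above *Dusp16*, *Spred1* above *Spry2*, and *Dusp5* above *Spry1*. *Spry1* had normalized values of 0 to 6 in all 180 samples, with a mean of 0.889, and was the 1 member that did not reach the mean of 10 needed for testing, so 9 of 10 members were tested.

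In the mm10 coordinates of the deposited table, *Dusp1* lies at chr17:26505591-26508472 on the minus strand and *Dusp6* at chr10:99263231-99267489 on the plus strand. *Dusp2* lies at chr2:127336159-127338377, *Dusp4* at chr8:34807610-34819894, *Dusp5* at chr19:53529145-53541809, *Spry1* at chr3:37639947-37644599, *Spred1* at chr2:117121071-117182279 and *Spred2* at chr11:19924442-20022597, all on the plus strand. *Dusp16*, at chr6:134715468-134792628, and *Spry2*, at chr14:105891947-105896819, lie on the minus strand. The values count reads on exons only. *Dusp6* overlaps the opposite-strand gene *Gm34921* (mean normalized value 7.92 over all samples, against 48.2 for *Dusp6*), and *Dusp16* overlaps *1700055D16Rik* (2.52) and *Gm36328* (3.09). Strand-specific counting is not mentioned for these values, so reads of these overlapping pairs cannot be told apart.

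Promoter sequence from RefSeq (build GRCm38.p6) was at hand for 9 of the 10 members, all but *Dusp4*. The 250 bases upstream of the start are shown for *Dusp1* and *Dusp6*, the members on which most results below turn. Capitals mark matches to the cAMP response element TGACGTCA and to its half-site TGACG, on either strand.
Dusp1, chr17:26508473-26508722, minus strand: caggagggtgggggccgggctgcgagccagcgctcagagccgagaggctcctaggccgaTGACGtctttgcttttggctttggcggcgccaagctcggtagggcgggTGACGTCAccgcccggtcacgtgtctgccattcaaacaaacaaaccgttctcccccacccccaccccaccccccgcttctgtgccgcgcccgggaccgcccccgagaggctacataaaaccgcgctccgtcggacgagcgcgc
Dusp6, chr10:99262981-99263230, plus strand: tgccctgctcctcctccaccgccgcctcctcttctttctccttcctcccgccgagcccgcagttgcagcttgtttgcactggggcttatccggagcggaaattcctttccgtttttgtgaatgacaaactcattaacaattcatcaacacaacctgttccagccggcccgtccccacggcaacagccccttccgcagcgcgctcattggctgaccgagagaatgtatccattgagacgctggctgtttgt

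Both strands of each 250-base window were searched for 5 motifs: the full cAMP response element, its half-site (which the full element also contains), the AP-1 site TGANTCA, the ETS site CCGGAAGT, and the CArG box that binds serum response factor. The full element was in the *Dusp1* window, starting 143 bases before the transcription start, and is in 1.55% of the 32851 mouse promoters of this length. The *Dusp5* window held 2 CArG boxes, a motif in 1.47% of promoters. Half-sites occurred with *Dusp1*, *Dusp5*, *Dusp16* and *Spred2* and are in 17.8% of promoters. The windows of *Dusp2*, *Dusp6*, *Spry1*, *Spry2* and *Spred1* held none of the 5, while AP-1 and ETS sites, in 6.75% and 2.88% of promoters, were found with none of the 9. A match describes the letters in the window and is not evidence of a site in use.

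Against the DMSO samples of both sets together, *Dusp6*, the cytoplasmic ERK phosphatase, was lower with MEK inhibitors and higher with p38 inhibitors. It had the largest difference between these classes of all members. In DMSO its normalized values were 24, 26 and 27 in the first set and 50, 43 and 37 in the second. The DMSO sets thus did not overlap, and this gap enters every comparison of *Dusp6* with DMSO. With Pimasertib its values were 17, 9 and 18, all below the DMSO samples. With Selumetinib they were 18, 13 and 32 and with Refametinib 29, 30 and 19, which overlap the DMSO range. The 9 MEK inhibitor samples together lay between 9 and 32, and *Dusp6* fell by 0.76 on the log2 scale (95% interval −1.14 to −0.38, 1.70-fold lower, limma, adjusted p = 0.00922). It was the only one of the 9 tested members called with the MEK class, against 15.7% of all genes tested, so the share of members called was no larger than the background.

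Between the single MEK inhibitors the fall of *Dusp6* was called for Pimasertib alone (fell by 1.18 on the log2 scale, adjusted p = 0.000958), where it was again 1 of 9 members against 21.7% of all genes. It was −0.73 for Selumetinib (adjusted p = 0.778) and −0.37 for Refametinib (adjusted p = 0.344), and whether these 3 differ from each other was not tested. With Selumetinib and with Refametinib 0% of all genes were called, so the missing calls there are not particular to *Dusp6*. The call for the class was lost without Pimasertib (−0.55, adjusted p = 0.171), against the first DMSO set alone (−0.40, adjusted p = 0.287), without the second replicate of every group (−0.60, adjusted p = 0.160) and without the second sample of the second DMSO set (−0.69, adjusted p = 0.0566). For Pimasertib alone it was lost against the first DMSO set (−0.82, adjusted p = 0.0547) and without the second replicate of every group (−0.88, adjusted p = 0.123).

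With p38 inhibitors *Dusp6* rose. Its values were 168, 116 and 105 with PH797804, 80, 79 and 62 with Losmapimod and 56, 57 and 63 with Talmapimod, every one of them above the highest DMSO sample. With VX702 they were 25, 38 and 29, inside the DMSO range, so 3 of the 4 p38 inhibitors stood clear of DMSO and the fourth did not. Over the 12 samples of the class *Dusp6* was 1.89-fold higher than DMSO (log2 0.92, 95% interval 0.56 to 1.28, limma, adjusted p = 0.00123). The rise was called for PH797804 (3.74-fold, adjusted p = 2.04e-08) and Losmapimod (2.17-fold, adjusted p = 0.0378). For Talmapimod the log2 difference was 0.80 (adjusted p = 0.341) and for VX702 it was −0.13 (adjusted p = 0.922). Of all genes, 0% were called with Talmapimod and 0.189% with VX702.

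The call for the p38 class was lost without PH797804 (0.59, adjusted p = 0.164), against the second DMSO set alone (0.56, adjusted p = 0.373), and without the first or the second replicate of every group (0.93 and 0.89, adjusted p = 0.050 and 0.129). The call for Losmapimod was lost in 10 of 12 fits that left out samples (log2 1.02 to 1.23, adjusted p up to 0.757), the exceptions being those without the first or the second sample of the second DMSO set. It was also lost against the second DMSO set alone (0.75, adjusted p = 0.790), after median-of-ratios scaling (1.03, adjusted p = 0.0574) and with the compared groups alone (adjusted p = 0.775). The call for PH797804 held in all 12 fits that left out samples, with a log2 difference of 1.70 to 2.04 and an adjusted p of at most 0.00117.

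**Figure D1:**
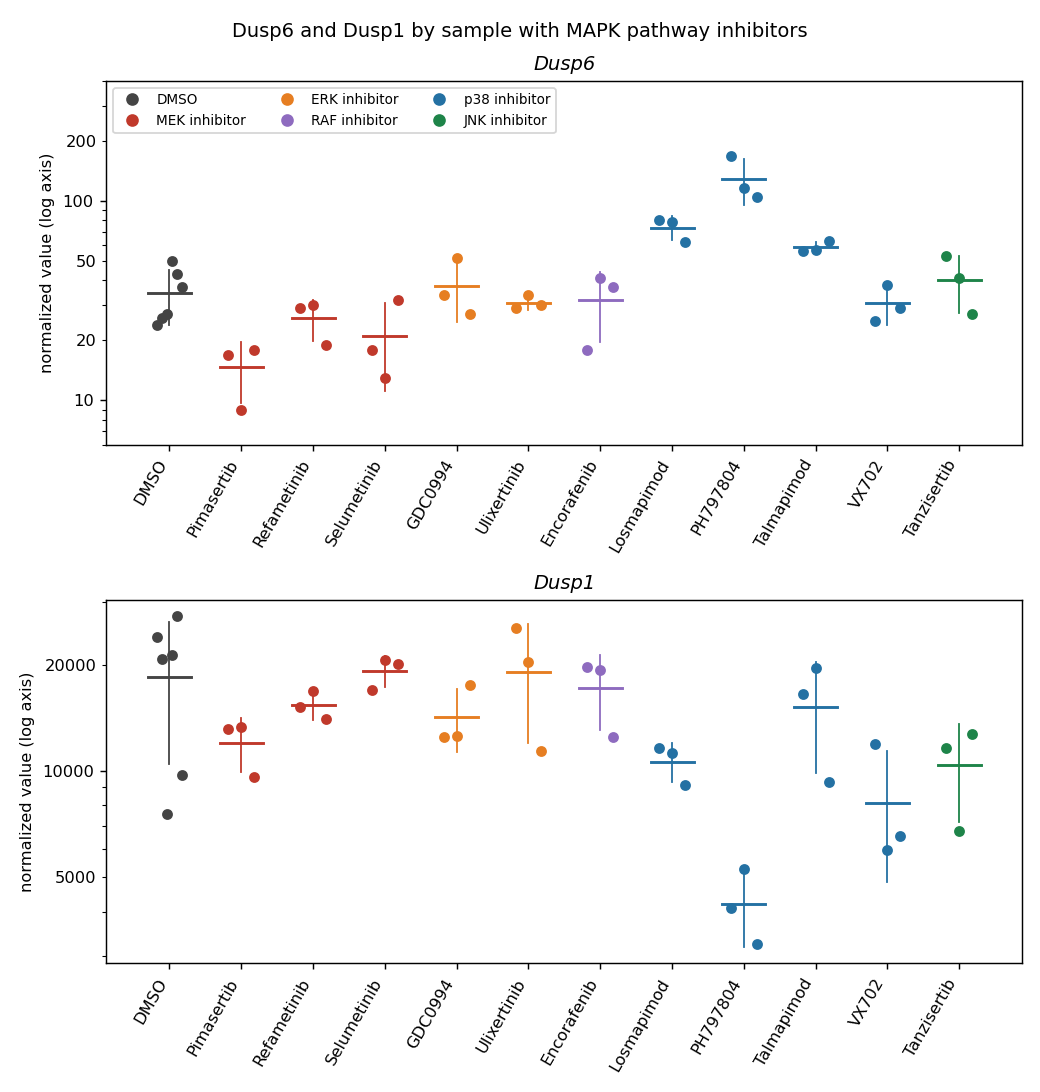
Normalized values (log axis) of Dusp6 (top) and Dusp1 (bottom) in the 6 DMSO samples and in the 3 samples of each of 11 MAPK pathway inhibitors. Points are samples, horizontal bars are means and vertical bars are 1 SD. Dusp6 lies at 9 to 18 with Pimasertib and at 105 to 168 with PH797804, on either side of the DMSO range of 24 to 50, while Dusp1 with PH797804 (3239 to 5295) lies below all other samples shown.

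Set directly against each other, without DMSO, the 2 classes gave the largest member difference among the comparisons of MAPK classes. The 9 MEK inhibitor samples had a mean *Dusp6* value of 20.6 and the 12 p38 inhibitor samples one of 73.2, a difference of −1.68 on the log2 scale (95% interval −2.00 to −1.36, 3.21-fold lower with MEK inhibitors, limma, adjusted p = 2.98e-15). The interval and the p-value rest on the spread between samples of the same inhibitor, not on that between inhibitors of a class. The ranges of the classes, 9 to 32 and 25 to 168, overlapped through VX702. Leaving out any 1 inhibitor of either class, or any sample, kept the call, and without PH797804 the difference was −1.36 (adjusted p = 5.02e-09). In this comparison 3 of 9 members were called, *Dusp6*, *Dusp1* and *Dusp2*, against 3.33% of all genes.

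ERK inhibitors did not change *Dusp6* detectably. Its values were 34, 52 and 27 with GDC0994 and 29, 34 and 30 with Ulixertinib, within or next to the DMSO range, with a log2 difference of 0.01 (95% interval −0.40 to 0.43, adjusted p = 1.00). The interval leaves out a fall as large as the estimate for the MEK class. Of all genes, 0.0315% were called with the ERK class, against 15.7% with the MEK class. The difference between MEK and ERK inhibitors itself was −0.77 (95% interval −1.15 to −0.39), with an adjusted p of 0.0527 in limma, and 0 of 9 members passed the threshold there (1 at an unadjusted p under 0.05), where 0.149% of all genes did. With a further scaling by the median of ratios that difference was −0.85 (adjusted p = 0.0340). Between ERK and p38 inhibitors *Dusp6* differed by −0.91 (95% interval −1.27 to −0.55, adjusted p = 0.00347) and was the 1 member called, against 0.283% of all genes. This call was lost without PH797804 (−0.58, adjusted p = 0.564), without Ulixertinib (−0.80, adjusted p = 0.472), and without the first or the third replicate of every group (−0.84 and −0.85, adjusted p = 0.267 and 0.0929).

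Encorafenib gave *Dusp6* values of 18, 41 and 37, and Tanzisertib 53, 41 and 27. Both overlapped DMSO, with log2 differences of −0.13 (95% interval −0.64 to 0.37) and 0.22 (95% interval −0.29 to 0.73).

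*Dusp5*, the nuclear ERK phosphatase, was near the lower end of what could be tested. Its DMSO values ran from 8 to 18 with a median of 12.5, and over the 11 MAPK pathway inhibitors its samples lay between 5 and 25. The log2 differences were −0.12 (95% interval −0.80 to 0.56) with the MEK class, 0.10 (−0.65 to 0.84) with the ERK class and −0.15 (−0.80 to 0.49) with the p38 class, each interval wider than 1 log2 unit. It was called with 0 of 58 CKIs in limma, with 2 at an unadjusted p under 0.05.

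*Dusp1*, the most abundant member and a p38 and JNK phosphatase, was lower with p38 inhibitors, most of all with PH797804. In DMSO its values were 23940, 20808 and 7541 in the first set and 21239, 27409 and 9752 in the second, so the last sample of each set lay far below the other two, and this spread enters every comparison of *Dusp1* with DMSO. These low samples carry replicate number 3. Over the CKI samples the median *Dusp1* value was also lowest for that number, at 13836.5, 14704.5 and 9856.5 for the numbers 1, 2 and 3. With PH797804 the *Dusp1* values were 4103, 5295 and 3239, all below the DMSO samples, and *Dusp1* was 4.03-fold lower (log2 −2.01, 95% interval −2.80 to −1.23, limma, adjusted p = 0.000371). With VX702 (11903, 5979 and 6537), Losmapimod (11586, 11218 and 9103) and Talmapimod (16552, 19569 and 9339) the values overlapped DMSO, with log2 differences of −1.10 (adjusted p = 0.375), −0.66 (adjusted p = 0.630) and −0.20 (adjusted p = 0.904). Among the p38 inhibitors PH797804 had calls for both members, *Dusp1* down and *Dusp6* up, 2 of 9 members against 1.98% of all genes, whereas Losmapimod had a call for *Dusp6* alone, 1 of 9 against 0.0865%.

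Over the class of p38 inhibitors *Dusp1* fell by 0.99 on the log2 scale (95% interval −1.55 to −0.44, adjusted p = 0.0430). *Dusp1* and *Dusp6* were the 2 of 9 members called with the class, against 1.59% of all genes. The *Dusp1* call for the class depended on single samples, and it was lost in 13 of 21 fits that left out samples (log2 −1.29 to −0.80, adjusted p up to 0.467). These were the fits without the first or second replicate of every group, without the first or second sample of either DMSO set, without the first or last sample of Losmapimod, PH797804 or Talmapimod, and without the second of VX702. It was also lost without PH797804 (−0.65, adjusted p = 0.301) or VX702 (−0.96, adjusted p = 0.0760), and against either DMSO set alone (−0.89 and −1.09, adjusted p = 0.338 and 0.222). The call for PH797804 itself was lost only without the first replicate of every group (−1.79, adjusted p = 0.129) and when PH797804 and DMSO were fitted by themselves (adjusted p = 0.0520).

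*Dusp1* did not change detectably with the MEK class, where its values lay between 9650 and 20637 (log2 −0.13, 95% interval −0.72 to 0.45), or with the ERK class, between 11424 and 25378 (−0.07, 95% interval −0.71 to 0.57). Against p38 inhibitors, MEK inhibitors had 1.81-fold higher *Dusp1* (log2 0.86, 95% interval 0.37 to 1.35, adjusted p = 0.0318), a call lost without PH797804 (0.52, adjusted p = 0.328), Refametinib (0.85, adjusted p = 0.103), Selumetinib (0.69, adjusted p = 0.0969) or VX702 (0.82, adjusted p = 0.0750). It was also lost in 12 of 24 fits that left out samples (0.74 to 0.98, adjusted p up to 0.161). These were the fits without any 1 replicate of every group, without the first or second sample of Pimasertib or Refametinib, without the first of Selumetinib, and without the last of Losmapimod, PH797804, Talmapimod or VX702. With Tanzisertib, the JNK inhibitor, the values were 11633, 6752 and 12769 (log2 −0.73, 95% interval −1.52 to 0.05).

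**Figure D2:**
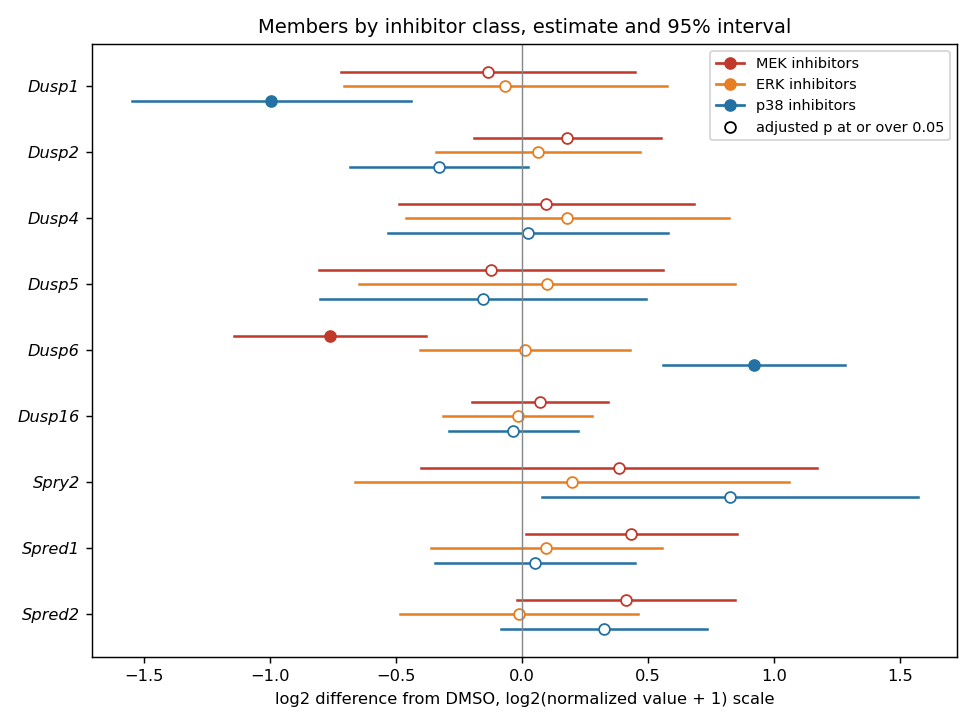
Log2 difference from DMSO (horizontal axis, log2(normalized value + 1) scale) of the 9 tested members for the MEK, ERK and p38 inhibitor classes, with 95% intervals. Filled points have an adjusted p under 0.05: Dusp6 with MEK (−0.76) and p38 inhibitors (0.92) and Dusp1 with p38 inhibitors (−0.99).

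*Dusp16*, the other JNK and p38 phosphatase, kept close to DMSO in the averages of the MEK, ERK and p38 classes. Its DMSO values ranged from 628 to 1775 with a median of 1320, and the class differences were 0.07 (95% interval −0.20 to 0.34) for MEK, −0.02 (−0.31 to 0.28) for ERK and −0.03 (−0.29 to 0.22) for p38. These were the narrowest intervals among the members, and for the class averages they leave out changes of 1.5-fold. Encorafenib gave *Dusp16* values of 939 to 1101 and Tanzisertib 1273 to 1363, inside the DMSO range. PH797804 had the highest *Dusp16* mean of the 59 groups (1483 ± 268).

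*Dusp2*, a nuclear phosphatase of activated leukocytes, differed between MEK and p38 inhibitors by 0.51 on the log2 scale (95% interval 0.20 to 0.82, adjusted p = 0.0467). The MEK inhibitor samples lay between 319 and 601 and the p38 inhibitor samples between 186 and 517, against 266 to 488 in DMSO. Neither class differed from DMSO by itself (0.18, adjusted p = 0.504, and −0.33, adjusted p = 0.318). The lowest p38 samples were those of PH797804, at 222, 210 and 223, below all DMSO samples (log2 −0.78, adjusted p = 0.0834, and −0.86, adjusted p = 0.0445, after median-of-ratios scaling). The MEK against p38 call was lost after that scaling (0.47, adjusted p = 0.0676), and when Pimasertib, Refametinib, Selumetinib, Losmapimod or PH797804 was taken out of its class (0.36 to 0.58). It was lost too in 17 of 24 fits that left out samples (0.42 to 0.56, adjusted p up to 0.259), and held without the first sample of Losmapimod, PH797804 or Talmapimod, the last of Pimasertib, the second or last of Selumetinib, or the second of VX702. *Dusp4*, whose product is also a nuclear phosphatase, had class differences of 0.10, 0.18 and 0.02, each with an interval wider than 1 log2 unit.

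The Sprouty and Spred genes were not called with any MAPK class in the fit without replicate numbers. *Spry2* was 53, 23 and 13 in the first DMSO set and 86, 20 and 12 in the second, the widest relative spread of the tested members. With PH797804 its values were 134, 79 and 64 (log2 1.69, 95% interval 0.64 to 2.75, adjusted p = 0.0749), and over the p38 class the difference was 0.83 (adjusted p = 0.236). *Spred1* lay between 645 and 1024 in the 9 MEK inhibitor samples against 298 to 1024 in DMSO (log2 0.43, 95% interval 0.02 to 0.85, adjusted p = 0.132), and *Spred2* differed by 0.41 (95% interval −0.02 to 0.84, adjusted p = 0.164). The *Spred1* difference passed the threshold without the first sample of the second DMSO set (0.60, adjusted p = 0.0319) and without the first replicate of every group (0.70, adjusted p = 0.0449). After median-of-ratios scaling the last 2 differences were 0.32 and 0.30. With Encorafenib 0 of 9 members passed the limma threshold, where 0% of all genes did, with Tanzisertib 0 of 9 against 0.0708%, and with the ERK class 0 of 9 against 0.0315%. For all 3, 0 members had an unadjusted p under 0.05.

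Some properties of the libraries moved with the MEK class. The share of mitochondrial transcripts was 3.24% to 4.29% with Pimasertib, 1.23% to 4.45% with Refametinib and 1.28% to 3.18% with Selumetinib, against 0.759% to 1.94% in DMSO. Summed neutrophil markers were at 1227 to 1412, 713 to 2050 and 367 to 1687 in the same order, against 259 to 896 in DMSO, with 3 of 5 tested markers called (*S100a8*, *S100a9* and *Ngp*), beside the macrophage marker *Cd68*, 1 of 10, and the dendritic cell marker *Xcr1*, the 1 tested of its list. Of all genes, 15.7% were called with the MEK class. The median of all genes was 0.11 above DMSO with the MEK class and −0.00 after median-of-ratios scaling, where *Dusp6* fell by 0.87 (adjusted p = 0.00176). With the replicate number and the mitochondrial share as further terms of the fit it fell by 0.98 (adjusted p = 0.000704). The part of the neutrophil markers was not tested. Macrophage markers summed to between 90180 and 256760 in every sample, whereas T cell markers summed to at most 31, B cell markers to at most 46, dendritic cell markers to at most 162 and fibroblast markers to at most 221. Neutrophil markers were higher than these, at 197 to 2050 over all samples. The label of the cells as macrophages held, with neutrophil markers present at a far lower sum. The normalized values of a sample summed to between 9477340 and 12273349. In such bulk samples fewer cells of a type and less RNA per cell cannot be told apart.

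Over all 58 CKIs, 27 of the 522 pairs of a tested member and a CKI were called, 13 lower and 14 higher, which is to be read against 1.65% and 2.52% of all gene and CKI pairs. These calls came from 15 CKIs, and all of them share the 6 DMSO samples. *Dusp1* was lower with 7 CKIs and higher with 0, and *Dusp6* was higher with 9 and lower with 1. *Dusp4* was higher with 3 and lower with 1, *Dusp2* and *Dusp16* were each lower with 2, and *Spry2* and *Spred2* were each higher with 1. *Dusp5* and *Spred1* were called with 0 in limma, with 2 and 7 CKIs at an unadjusted p under 0.05.

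**Figure D3:**
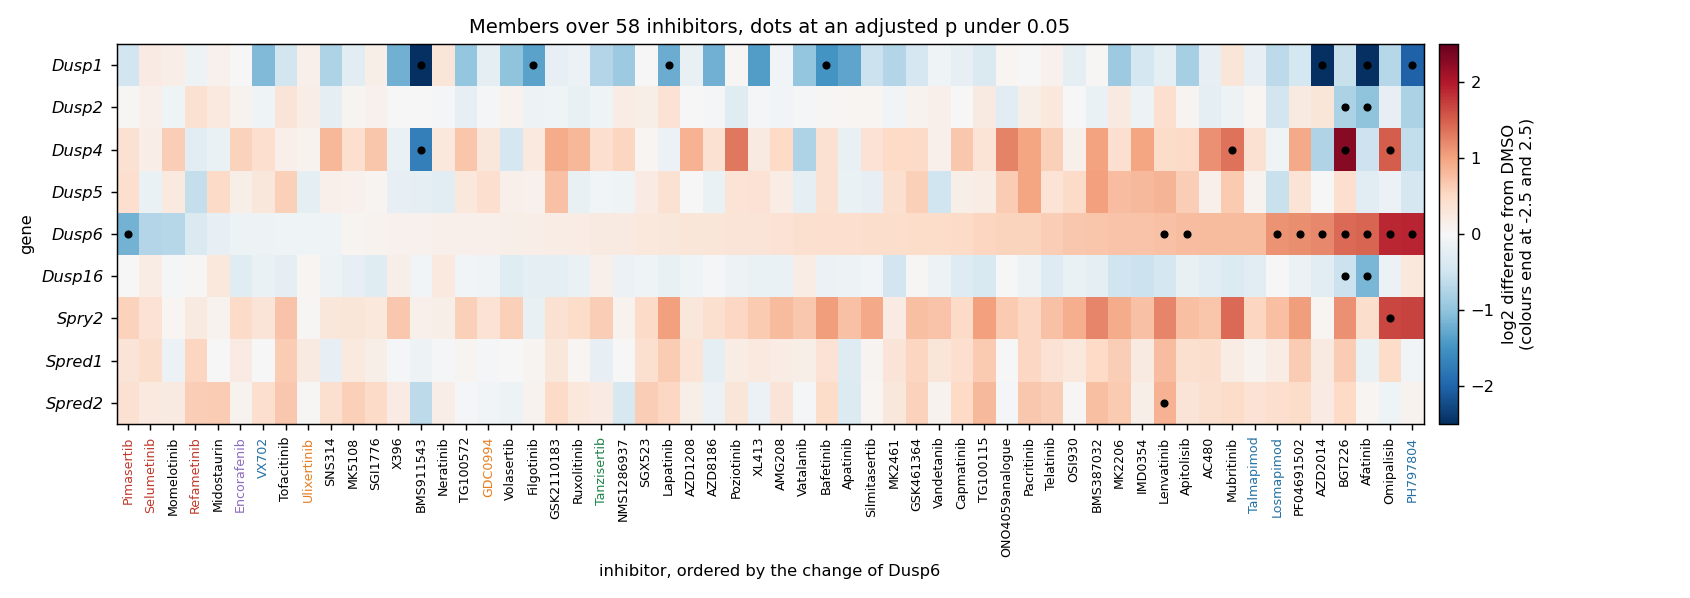
Log2 difference from DMSO (colour, ending at −2.5 and 2.5) of the 9 tested members (rows) for 58 CKIs (columns), ordered by the change of Dusp6. Dots mark an adjusted p under 0.05 and coloured names are the MAPK pathway inhibitors. The 3 MEK inhibitors are among the 4 CKIs with the lowest Dusp6, and PH797804 has the highest.

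In the order of mean *Dusp6* values over the 59 groups, Pimasertib was lowest at 14.7 ± 4.93, followed by Momelotinib (20.0 ± 1.73), Selumetinib (21.0 ± 9.85) and Refametinib (26.0 ± 6.08), with DMSO at place 11 (34.5 ± 10.6). Momelotinib, a JAK inhibitor, had values of 18, 21 and 21, below all DMSO samples, although its adjusted p was 0.248. Neighbours at this end did not differ beyond their spread. At the top stood PH797804 (130 ± 33.7), Omipalisib (129 ± 31.9), Afatinib (96.0 ± 26.0) and BGT226 (92.0 ± 16.5).

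Outside the MAPK classes, *Dusp6* was higher with CKIs designated as inhibitors of PI3K and mTOR. With Omipalisib, a PI3K and mTOR inhibitor, its values were 116, 165 and 105, all above DMSO (3.72-fold, limma, adjusted p = 1.47e-09). BGT226, of the same kind, gave 101, 102 and 73 (2.69-fold, adjusted p = 2.78e-06), and AZD2014, an mTOR inhibitor, gave 80, 84 and 70 (2.30-fold, adjusted p = 0.000140). PF04691502 (58, 117 and 63, log2 1.16, adjusted p = 0.000809) and Apitolisib (69, 58 and 48, log2 0.78, adjusted p = 0.0312) completed the 5 CKIs with mTOR among their designated or other known targets, and *Dusp6* was called with each. Their intended targets in the bead assay, which set the concentrations, were other proteins: IRAK3 for Omipalisib, CLK1 for BGT226, PFKP for AZD2014, CSNK2A2 for PF04691502 and JAK1 for Apitolisib. This grouping by designated target was made after the values were seen. Other inhibitors of PI3K or of AKT, its downstream kinase, gave smaller differences that were not called: 0.31 for AZD8186, 0.53 for TG100115, 0.18 for GSK2110183 and 0.71 for MK2206. Of all genes, 0.228%, 0.0236%, 0% and 1.82% were called with them in the same order, against 13.1% to 30.4% with the 5 CKIs above. Whether *Dusp6* differed between these CKIs and the 5 was not tested.

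The calls for Omipalisib, BGT226 and AZD2014 held in the 10 alternatives that kept *Dusp6* among the genes tested and with any sample left out. That for PF04691502 was lost without its second sample (0.84, adjusted p = 0.0516) and without the second replicate of every group (0.85, adjusted p = 0.134). The same call was lost against the second DMSO set alone (0.80, adjusted p = 0.0714) and with the compared groups alone (adjusted p = 0.0700). That for Apitolisib was lost in 10 of 12 fits that left out samples (0.65 to 0.91, adjusted p up to 0.227), all but those without the first or last sample of the second DMSO set. It was also lost in 6 of 10 alternatives, with values from 0.42 (adjusted p = 0.337) against the second DMSO set alone to 1.14 (adjusted p = 0.0520) against the first. With the replicate number and the mitochondrial share in the fit it was 0.54 (adjusted p = 0.269), and the mitochondrial share of the Apitolisib samples was 1.49% to 4.04%, against 0.759% to 1.94% in DMSO. *Dusp6* was also called with Lenvatinib, a VEGF receptor inhibitor (51, 64 and 54, log2 0.74, adjusted p = 0.0465), a call lost in 11 of 12 such fits (0.64 to 0.85, adjusted p up to 0.328), all but that without the first sample of the second DMSO set. With Afatinib it rose to 110, 112 and 66 (2.76-fold, adjusted p = 7.36e-06), a call that held in every such fit.

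*Dusp1* had its deepest falls with AZD2014, Afatinib and BMS911543. With AZD2014 its values were 927, 683 and 952, against 7541 or more in every DMSO sample, a 19.7-fold lower level (log2 −4.30, 95% interval −5.08 to −3.52, limma, adjusted p = 3.50e-16). Afatinib, an EGFR family inhibitor used with MAPK9 as its intended target, gave 1214, 1357 and 1513 (12.3-fold lower, adjusted p = 2.85e-12), and BMS911543, a JAK2 inhibitor, gave 846, 3825 and 717 (12.6-fold lower, adjusted p = 2.64e-12), with its second sample well above the other two. These 3 calls held under the 11 alternatives and with any sample left out, and without its second sample the log2 difference for BMS911543 was −4.42. The other CKIs aimed at PI3K and mTOR did not share the fall of *Dusp1* with AZD2014: the values were 11104, 14699 and 6549 with Omipalisib, 12514, 14426 and 8035 with BGT226, 13784, 12166 and 11187 with PF04691502, and 13594, 12370 and 4811 with Apitolisib, overlapping DMSO in each.

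The remaining falls of *Dusp1* were smaller, with samples that overlapped DMSO. They came with Bafetinib, designated for ABL and LYN with MAPKAPK3 as intended target (4072, 5021 and 9923, log2 −1.50, adjusted p = 0.0223), Filgotinib (4552, 10789 and 5718, log2 −1.35, adjusted p = 0.00837) and Lapatinib (3588, 9788 and 10058, log2 −1.24, adjusted p = 0.0192). Each was lost without its own first sample, where the log2 difference was −1.24 (adjusted p = 0.369), −1.08 (adjusted p = 0.110) and −0.75 (adjusted p = 0.255). Bafetinib also lost the call without its second sample (−1.39, adjusted p = 0.0794) or the second sample of either DMSO set (−1.44 and −1.36, adjusted p = 0.0503 and 0.122), and Lapatinib without the second sample of the second DMSO set (−1.09, adjusted p = 0.0659). All 3 were lost without the first replicate of every group (−1.02, −0.87 and −0.53, adjusted p = 0.319, 0.293 and 0.493) or the second (−1.13, −1.45 and −1.21, adjusted p = 0.352, 0.0558 and 0.160). Against the first DMSO set alone they were −1.40, −1.25 and −1.14 (adjusted p = 0.182, 0.0561 and 0.0812), and they were lost with the compared groups alone. The Lapatinib samples had a mitochondrial share of 1.92% to 3.71% and summed neutrophil markers of 1194 to 1381, and with the replicate number and the mitochondrial share in the fit the difference was −0.93 (adjusted p = 0.0841). Without the last replicate of every group Bafetinib stood at −2.36 and Lapatinib at −1.97.

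**Figure D4:**
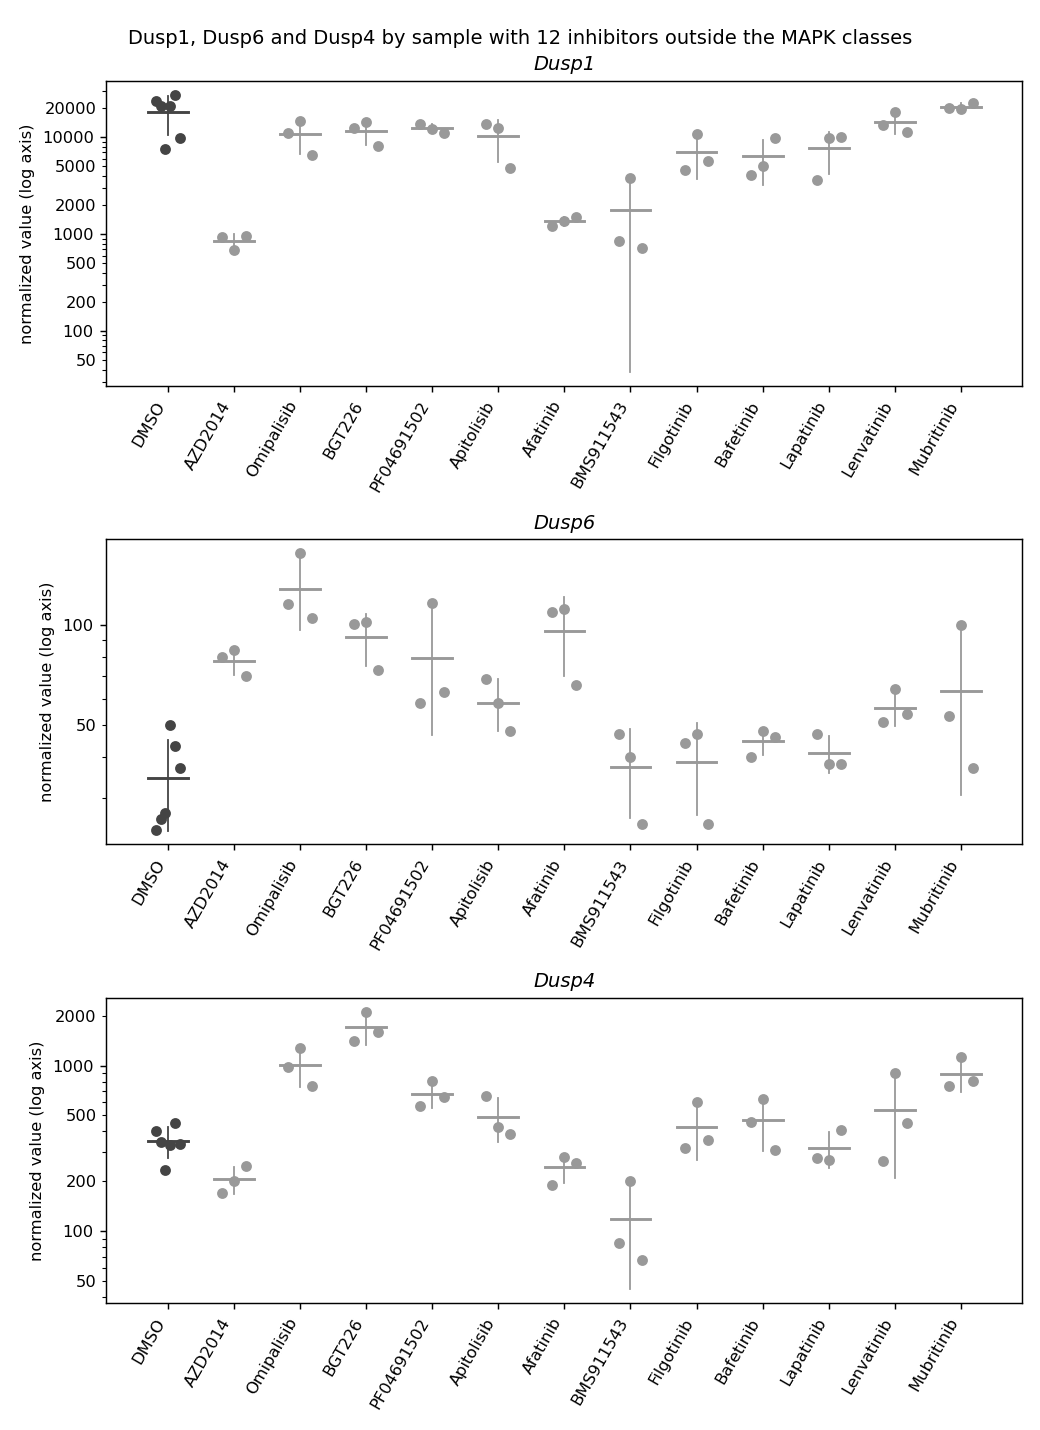
Normalized values (log axis) of Dusp1, Dusp6 and Dusp4 in DMSO and with 12 CKIs outside the MAPK classes that had a call for a member. Points are samples, horizontal bars are means and vertical bars are 1 SD. Dusp1 is lowest with AZD2014 (683 to 952), Dusp6 highest with Omipalisib (105 to 165) and Dusp4 highest with BGT226 (1404 to 2114).

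*Dusp4* rose most with BGT226, where its values were 1404, 2114 and 1593 against 235 to 452 in DMSO (4.87-fold, log2 2.28, 95% interval 1.5 to 3.07, limma, adjusted p = 1.16e-06). With Omipalisib they were 981, 1279 and 752 (2.84-fold, adjusted p = 0.00219), and both calls held with any sample left out. With Mubritinib, an ERBB2 inhibitor, they were 750, 1129 and 809 (log2 1.35, adjusted p = 0.0484), a call lost in 11 of 12 fits that left out samples (1.18 to 1.52, adjusted p up to 0.465), all but that without the first sample of the first DMSO set. It was also lost in 5 of 11 alternatives, among them either DMSO set alone (adjusted p = 0.116 and 0.25). BMS911543 moved *Dusp4* the other way, to 85, 202 and 67, below all DMSO samples (3.26-fold lower, adjusted p = 0.000849), a call lost without the first replicate of every group (−1.51, adjusted p = 0.0573).

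*Dusp2* was 216, 194 and 155 with Afatinib, below the DMSO samples (2.01-fold lower, adjusted p = 0.00161), and 312, 181 and 182 with BGT226 (1.73-fold lower, adjusted p = 0.00987). *Dusp16* was 491, 322 and 1041 with Afatinib (2.22-fold lower, adjusted p = 7.65e-07), where the third sample lay inside the DMSO range, and 870, 837 and 813 with BGT226 (1.45-fold lower, adjusted p = 0.0165). The Afatinib calls were each lost without the second replicate of every group (−1.02 for *Dusp2* and −0.59 for *Dusp16*, adjusted p = 0.109 and 0.149), and that for *Dusp16* was −1.87 without the last replicate of every group. Both BGT226 calls were lost without its second sample (−0.66 and −0.53, adjusted p = 0.0845 and 0.0505) or its last (−0.66 and −0.51, adjusted p = 0.0761 and 0.0574), and that for *Dusp16* also without the second sample of the second DMSO set (−0.43, adjusted p = 0.0711). Without the second replicate of every group they were −0.64 and −0.36 (adjusted p = 0.187 and 0.251), and *Dusp16* was −0.49 (adjusted p = 0.178) without the first. With BGT226, *Dusp2* lost its call against the second DMSO set alone (−0.73, adjusted p = 0.057) and *Dusp16* against the first (−0.36, adjusted p = 0.21). With the compared groups alone, *Dusp16* lost its calls with BGT226 (adjusted p = 0.17) and Afatinib (adjusted p = 0.0908).

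*Spry2* rose with Omipalisib, to 130, 119 and 42 (3.19-fold, log2 1.68, adjusted p = 0.0126), overlapping the DMSO range of 12 to 86. That call was lost without its first sample (1.39, adjusted p = 0.110) or its second (1.45, adjusted p = 0.0884), and without the second replicate of every group (1.30, adjusted p = 0.327). It was also lost against the second DMSO set alone (1.61, adjusted p = 0.0544) and with the compared groups alone (adjusted p = 0.0806). *Spred2* was 70, 92 and 66 with Lenvatinib, above all DMSO samples (1.82-fold, adjusted p = 0.0416), a call lost in 10 of 12 fits that left out samples (0.69 to 0.99, adjusted p up to 0.340), all but those without the first sample of either DMSO set. Lenvatinib samples had a mitochondrial share of 2.07% to 3.70%, all above DMSO, and summed neutrophil markers of 649 to 1306. With the replicate number and the mitochondrial share in the fit, its differences were 0.53 for *Spred2* (adjusted p = 0.303) and 0.52 for *Dusp6* (adjusted p = 0.292), neither of them called. With Lenvatinib and BGT226 the median of all genes was shifted by 0.18 and 0.21. After median-of-ratios scaling the Lenvatinib differences were 0.69 for *Spred2* (adjusted p = 0.0982) and 0.56 for *Dusp6* (adjusted p = 0.124). Those of BGT226 after that scaling were 2.08 for *Dusp4*, 1.23 for *Dusp6*, −0.99 for *Dusp2* and −0.74 for *Dusp16*, all still called.

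Counted by CKI, Afatinib and BGT226 had calls for 4 of 9 members, against 21.9% and 30.4% of all genes, and Omipalisib for 3 of 9 against 25.7%. AZD2014 (19.6%), BMS911543 (8.55%) and Lenvatinib (12.2%) had 2 of 9. Single calls among 9 members came with Apitolisib (15.9%), Filgotinib (20.7%), Lapatinib (23.3%), PF04691502 (13.1%), Bafetinib (2.13%) and Mubritinib (1.84%). With 9 members a single call moves the share a great deal, and no test of these shares against the background was made.

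High *Dusp6* did not always come with low *Dusp1*. Spearman's correlation of their mean levels over the 59 groups was −0.21, a description over groups that share 1 normalization. AZD2014, Afatinib and PH797804 had low *Dusp1* and high *Dusp6*, BMS911543 had low *Dusp1* with *Dusp6* at 47, 40 and 25, inside the DMSO range, and Omipalisib and BGT226 had high *Dusp6* with *Dusp1* overlapping the DMSO range. Among pairs of members the highest correlations were 0.64 for *Spred1* with *Spred2* and 0.64 for *Dusp6* with *Spry2*, and the lowest was −0.43 for *Dusp5* with *Dusp16*.

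**Figure D5:**
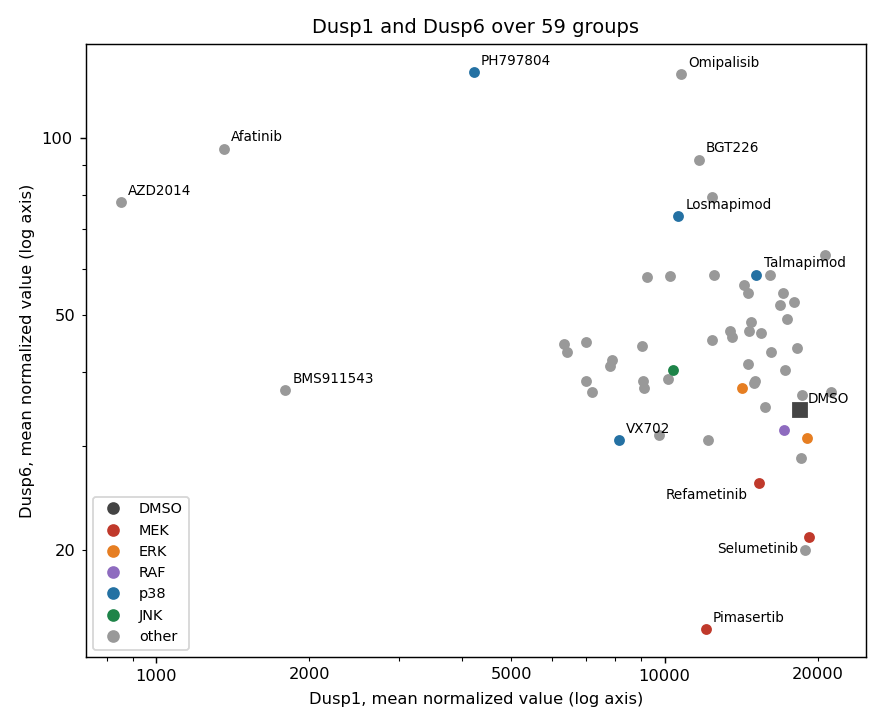
Mean normalized values of Dusp1 (horizontal, log axis) and Dusp6 (vertical, log axis) in the 59 groups, coloured by inhibitor class. AZD2014, Afatinib and PH797804 lie to the upper left of DMSO (square), BMS911543 lies to the left at the height of DMSO, and the 3 MEK inhibitors lie below it.

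Of all other tested genes, those whose group means followed a member most closely over the 59 groups were *Rfk* (Spearman's correlation 0.92), *Med30* (0.92) and *Fut11* (0.92) for *Dusp1*, and *Arhgap25* (0.74), *Tgif1* (0.67) and *Sgk1* (0.64) for *Dusp6*. For *Dusp4* they were *Mnt* (0.87), *Cdt1* (0.82) and *Pmaip1* (0.78), and for *Spred1* *Gm9845* (0.91), *Cd36* (0.90) and *Edem1* (0.90). The closest gene was *Zfp217* for *Dusp2* (0.74), *Pgf* for *Dusp5* (0.66), *Ift57* for *Dusp16* (0.75), *Mosmo* for *Spry2* (0.68) and *C920009B18Rik* for *Spred2* (0.77).

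The kinases and outputs of the same pathways gave the setting of the members. Of 14 genes known as ERK outputs, 12 were tested, and with the MEK class 4 were lower and 1 higher, against 15.7% of all genes called. The list median was −0.39 against 0.11 for all genes. The lower ones were the immediate early genes *Egr1* (−1.38, adjusted p = 0.0152) and *Fos* (−0.31, adjusted p = 0.0461), *Phlda1* (−1.16, adjusted p = 0.000776) and the cytokine gene *Lif* (−1.14, adjusted p = 0.0264), and the higher one was *Egr2* (1.00, adjusted p = 0.00798). Against p38 inhibitors 5 of the 12 were lower with MEK inhibitors, *Etv5*, *Phlda1*, *Egr1*, *Plaur* and *Lif*. In that comparison 3.33% of all genes were called. With the ERK class, the p38 class, Encorafenib and Tanzisertib 0 of 12 passed the limma threshold, with 1, 3, 2 and 1 at an unadjusted p under 0.05. Of all genes, 0.0315%, 1.59%, 0% and 0.0708% passed it in the same order. *Dusp6* thus fell with the MEK class beside *Egr1*, *Fos*, *Phlda1* and *Lif*, whereas the differences of *Dusp5* (−0.12), *Spry2* (0.38) and *Spred1* (0.43) were not called.

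Of 18 tested genes of the RAS to ERK cascade, 5 were higher with the MEK class, among them *Grb2* (0.67), *Nf1* (0.53), *Rasa1* (0.59) and *Rps6ka3* (0.75), and 0 lower, with a list median of 0.32. Of all genes, 15.7% were called with that class. *Nf1* encodes the RAS inactivator that Spred proteins bring to the membrane. With the p38 class 1 of 18 was called, against 1.59% of all genes. It was *Map3k8*, which encodes the kinase that links LPS to MEK in macrophages (−0.37, adjusted p = 0.0431). Between MEK and p38 inhibitors 4 of 18 were higher with MEK inhibitors, among them *Sos1* and *Rps6ka3*, against 3.33% of all genes called. Of 12 tested genes of the p38 cascade, the MEK class had lower *Map2k3* (−0.42) and *Mapk11* (−0.67) and higher *Rps6ka5* (0.40), and the p38 class had 0 called (3 at an unadjusted p under 0.05). Between these classes *Mapkapk2*, the kinase directly downstream of p38, was 0.55 higher with MEK inhibitors (adjusted p = 0.000479), as was *Map3k5* (0.49, adjusted p = 0.0424). Of 6 tested genes of the JNK cascade *Map3k1* alone was called, higher with the MEK class (0.58, adjusted p = 0.0431), a share near the 15.7% of all genes. Among 9 tested other genes of the DUSP, Sprouty and Spred families 1 was called, *Dusp3*, which was higher with the MEK class (0.42, adjusted p = 0.0222), with a list median of 0.10 against 0.11 for all genes. That 1 of 9 is no larger a share than the 15.7% of all genes.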

How the data were processed

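PolyA RNA of 180 BMDM samples was sequenced after SMART-seq2 amplification. Per the labels and methods, the authors aligned reads to mm10 with TopHat2 2.1.1, removed blacklisted regions with bedtools 2.29.2, counted reads on exons of curated RefSeq genes, normalized the samples to a set of invariant genes, and deposited the values rounded to whole numbers. The deposited values are a score, made by the authors as normalized read counts, and not raw counts. Because the scaling hides the number of reads, low values such as those of *Dusp5* carry an unknown counting error. Groups came from the labels.

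The test was limma 3.58.1 (R 4.3.3) with a variance trend on log2(normalized value + 1), fitted to all 59 groups together over the 12714 genes with a mean of at least 10. Fold changes are on this scale and understate those of low genes. P-values were adjusted by Benjamini-Hochberg over all genes tested, and an adjusted p under 0.05 was a call. The fit was tested on simulated data, which carried no effect of replicate number, DMSO set or mitochondrial share. Class values average the inhibitors of a class. Their intervals and p-values hold for the inhibitors used and do not cover the spread between inhibitors of a class. The members, the gene lists and the tests were chosen with earlier results of these data known. A few genes of the lists are not reported here by name. The genes named were the members, the genes of the lists called with a class and, for each member, up to 3 genes of closest pattern by Spearman's correlation of group means. CKIs outside the MAPK classes are named where a member was called, and the comparison with CKIs of PI3K and AKT and with Momelotinib was chosen after their values were seen.

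The alternatives tried were a pseudocount of 0.5 or 10, a filter at a mean of 50 or none, a further median-of-ratios scaling, each DMSO set alone, no variance trend, a replicate block, that block with the mitochondrial share, the compared groups alone, a log2 change of at least 0.5, and leaving out samples. Taking 1 inhibitor out of its class was added after seeing the data. Motifs and figures used Python 3.11.15, NumPy 2.4.6, pandas 2.3.3 and matplotlib 3.10.9.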

Additional observations from a re-analysis of the deposited data

Results flagged for a closer look

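For 3 members the effects of 2 inhibitor classes differed from each other in a direct limma test. *Dusp6* differed by −1.68 on the log2 scale between MEK and p38 inhibitors and by −0.91 between ERK and p38 inhibitors, lower in both cases than with p38 inhibitors. *Dusp1* was 0.86 and *Dusp2* 0.51 higher with MEK than with p38 inhibitors. Of the 4 differences, the first alone stayed past the threshold whichever inhibitor or sample was left out, and the 3 others were lost without PH797804. No member had a DMSO sample that stood apart from the other 5 by Dixon's test. That test looks for a lone outlying sample. It could not flag the low last samples of both sets for *Dusp1* or the gap between the sets for *Dusp6*.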

How the results depend on the processing

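No member result with a direction (an unadjusted p under 0.05) was reversed, in 40 results and 78 fits that left out samples. Of 59 member values without one, 32 changed sign under some alternative, 0 passed the threshold under an alternative and 1 did with samples left out (*Dusp1* with Tanzisertib, −1.39, adjusted p = 0.0272, without the third replicate of every group). Counts of called members moved as follows, and the cause was not tested unless given. With the MEK class, 1 became 0 at a mean of 50 (which removes *Dusp6*, mean 48.2), against the first DMSO set, with the compared groups alone and without Pimasertib. With the p38 class, 2 became 1 with no filter, at a mean of 50, against the first DMSO set, with the compared groups alone and without VX702, and 0 against the second DMSO set and without PH797804. Between MEK and p38 inhibitors, 3 became 1 with no filter and without Refametinib, Selumetinib or PH797804. It became 2 at a mean of 50, with median of ratios, with the compared groups alone, and without Pimasertib, Losmapimod or VX702. The same held with the replicate number and the mitochondrial share in the fit. Between ERK and p38 inhibitors, 1 became 0 at a mean of 50 and without Ulixertinib or PH797804, and 2 without Talmapimod. Between MEK and ERK inhibitors, 0 became 1 with a pseudocount of 0.5, no filter, median of ratios, and without Refametinib or Selumetinib. The calls over all 58 CKIs went from 27 to 17 at a mean of 50, and smaller shifts of that number are not listed. Leaving out samples gave 0 to 2 members with the MEK class, 0 to 2 with the p38 class, 0 to 1 with Tanzisertib, 1 to 3 between MEK and p38, 0 to 1 between ERK and p38, 0 to 1 between MEK and ERK, and 12 to 38 calls over all CKIs.

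A replicate block gave 53 calls over all CKIs in place of 27, with *Spry2* called for 11 CKIs in place of 1, *Spred1* for 7 in place of 0 and *Dusp1* lower with 10 in place of 7. It gave 2 members with the MEK class (*Spred1* gained, 0.43, adjusted p = 0.0350), 3 with the p38 class (*Spry2* gained, 0.83, adjusted p = 0.0187), 4 between MEK and p38 inhibitors (*Spred1* gained, 0.38, adjusted p = 0.0457), 2 between ERK and p38 inhibitors (*Dusp1* gained, 0.93, adjusted p = 0.0331) and 1 between MEK and ERK inhibitors (*Dusp6* gained, −0.77, adjusted p = 0.00883). With the mitochondrial share added to the replicate block there were 2 and 1 in the last 2, *Spry2* stayed called with the p38 class (0.77, adjusted p = 0.0270), and *Spred1* was at 0.05 with the MEK class (adjusted p = 0.910). The labels do not say what a number stands for. Deviations of same-numbered CKI and DMSO samples correlated at −0.523 to 0.726 (median 0.348), above 0.1 for all 3 numbers in 34 of 58 CKIs, and in 29 CKIs every sample correlated best with its own number. The median *Spry2* value over CKI samples was 65.0, 37.5 and 26.0 for the numbers 1, 2 and 3. Depth limits *Dusp5* and *Spry1* most, and a change in *Spry1* could not be tested.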
